A study of Rattus norvegicus with 6 samples.

Results

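The miR-23, miR-24 and miR-27 family was followed in rat hearts as every arm of the hairpins named rno-miR-23a, 23b, 24, 27a and 27b, whichever copy number the name carried. This rule used names only and found 11 of the 761 miRNA probes on the array, of which 5 read 3p arms and 6 read 5p arms. Of these, 8 were among the 282 miRNAs detected on at least 3 of the 6 arrays and were tested. The remaining members, miR-23b-5p, miR-27a-5p and miR-27b-5p, were detected on 0, 0 and 1 arrays.

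Hearts came from adult Sprague Dawley rats, male littermates by the study's methods, with 1 array per animal. The control group was animals 9, 10 and 11, without colitis. The DSS group was animals 13, 14 and 16, in which 4 rounds of dextran sodium sulfate at 3% in the drinking water, each of 5 days and followed by 9 days of plain water, produced chronic colitis over 8 weeks. DSS is a chemical model of colitis, and no transgene or deletion was involved. The question was how colitis changes miRNA levels in the heart. Values are normalized log2 intensities, so 1 unit is a doubling, and a miRNA was called changed at an adjusted p below 0.05 in limma, a linear model with a moderated variance.

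A miRNA hairpin is cut into a 5p and a 3p strand, and the strand kept in the silencing complex finds its messenger RNAs mainly through its seed near the 5′ end. The hairpins of miR-23, miR-27 and miR-24 lie side by side and are made from a shared primary transcript, in a cluster a and a paralogous cluster b. In this family the 3p strand is usually the main product and the 5p strand the passenger. In the cardiovascular system miR-23a is known as a promoter of cardiomyocyte hypertrophy, miR-24 as a regulator of cardiomyocyte and endothelial survival, and miR-27 as a regulator of angiogenesis and lipid metabolism.

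The mature sequences are shown because the 3p arms of both clusters are nearly identical, which bears on what a probe can tell apart. Capitals mark the seed, bases 2 to 8. All but miR-23a-5p, which is given as the array names it, were matched to RefSeq, and every position is on the minus strand of GRCr8.
rno-miR-23a-3p (chr19:40859778-40859798): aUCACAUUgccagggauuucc
rno-miR-23b-3p (chr17:1819405-1819425): aUCACAUUgccagggauuacc
rno-miR-27a-3p (chr19:40859614-40859634): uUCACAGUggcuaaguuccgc
rno-miR-27b-3p (chr17:1819163-1819183): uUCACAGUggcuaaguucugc
rno-miR-24-3p (chr19:40859481-40859502 and chr17:1818672-1818693): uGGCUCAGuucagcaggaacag
rno-miR-24-2-5p (chr19:40859517-40859538): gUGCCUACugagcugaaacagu
rno-miR-24-1-5p (chr17:1818710-1818731): gUGCCUACugagcugauaucag
rno-miR-23a-5p: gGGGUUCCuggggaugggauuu

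Counted from the 5′ end, miR-23a-3p and miR-23b-3p differ by U19A and miR-27a-3p and miR-27b-3p by C19U, in each case 1 of 21 bases and outside the seed. The seeds of miR-23 and miR-27 share their first 5 bases, and that of miR-24-3p differs from both. Both copies of miR-24 give the same 3p sequence, so 1 probe read the 3p product of both clusters, while the 5p arms share their first 16 bases and have a probe each. No other miRNA on the array had the seed of miR-23, miR-24 or miR-27. Whether a probe also bound the paralog of its target was not tested. Cluster a spans 389 bases and overlaps no gene other than its hairpins in the annotation used. Cluster b spans 814 bases and overlaps Aopep, which encodes an aminopeptidase, and Fancc, a gene of the Fanconi anaemia pathway.

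**Figure D1:**
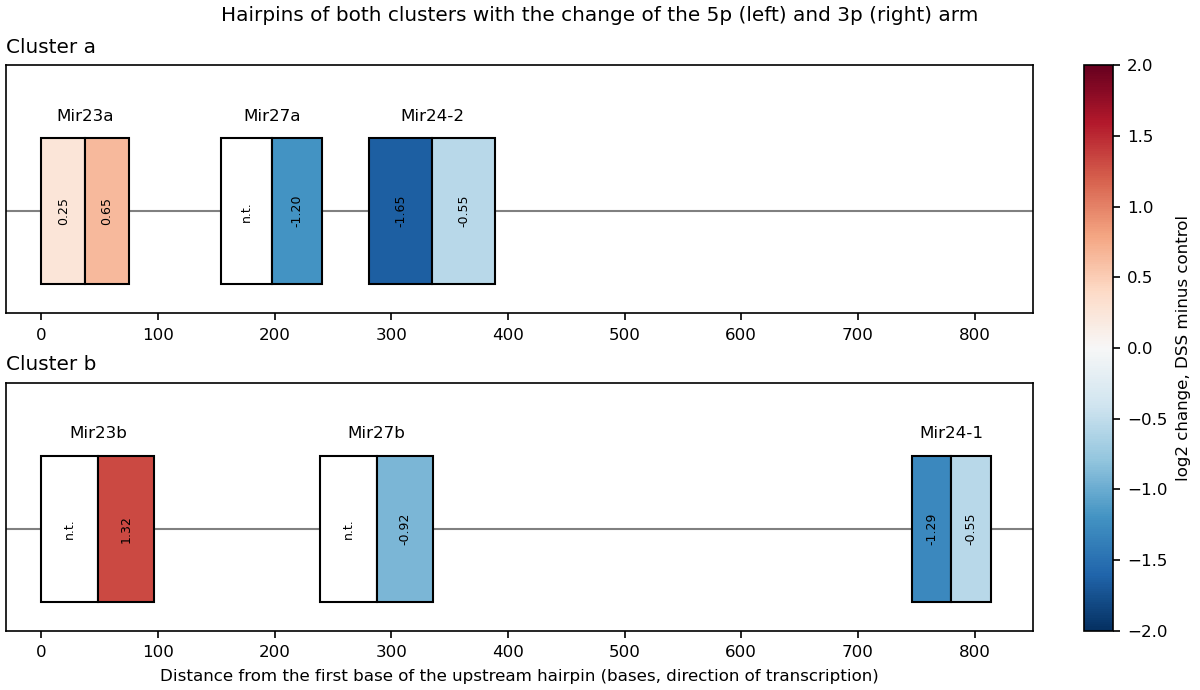
Hairpins of cluster a (top) and cluster b (bottom), drawn to scale against distance in bases from the first base of the upstream hairpin. Each box is divided at its middle into the 5p side (left) and the 3p side (right), and colour and number give the log2 change in DSS against control hearts (n.t., not tested). The miR-23 hairpin, which comes first in both clusters, had positive values, and the miR-27 and miR-24 hairpins had negative values, with the normalization used here (miR-23a-3p was -0.027 with 75th percentile scaling, and miR-24-3p and miR-24-1-5p were 0.029 and 0.30 with spike-in scaling). The 1.32 of miR-23b-3p was 0.75 without 1 dim spot.

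Arrays detected between 223 and 365 miRNAs, and 1 array per rat with 3 rats a group limits the precision of every value. All p-values measure the spread between these animals only. Of the 282 miRNAs tested, 59 were higher and 80 lower in DSS hearts. This split depended on the scaling, since it was 168 to 10 when arrays were scaled to 11 spike-in probes, 129 to 14 with the 6 5S rRNA probes, 81 to 38 without normalization, 80 to 80 with quantile normalization and 49 to 51 with scaling to the 75th percentile. Relative to the main values, in which the median change of all tested miRNAs was -0.064, those scalings moved this median to 1.31, 0.78, 0.36, 0.12 and 0.17. The cardiomyocyte miRNAs miR-1-3p, miR-133a-3p, miR-133b-3p and miR-499-5p were detected on all arrays, whereas miR-208a-3p was detected on 1 control array and miR-208b-3p on none.

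Within the family, miR-27 and the 5p arms of miR-24 fell, while no arm of miR-23 was called, with the normalization used here. With spike-in scaling the calls differed, and all 3 tested arms of miR-23 were called higher (1.11 for miR-23a-3p, 1.52 for miR-23a-5p and 1.82 for miR-23b-3p), as were 168 of all 282 tested miRNAs. No arm of miR-24 or miR-27 was called lower, where 10 of 282 were, and miR-24-1-5p was 0.30. With 5S rRNA scaling miR-23a-5p (0.99) and miR-23b-3p (1.30) were called higher, as were 129 of 282, and no arm lower, where 14 of 282 were. Relative to the median of all tested under either scaling, miR-23a-3p was -0.20, miR-23a-5p 0.21 and miR-23b-3p 0.52. With the normalization used here, 0 of the 8 members tested were called higher, where 20.9% of all tested miRNAs were, and 4 were called lower, where 28.4% were. At an unadjusted p below 0.05 in limma, 5 of the 8 members passed, where 58.5% of all tested miRNAs did, and miR-23b-3p was the one that was higher. In 7 of the 8 the control and DSS arrays did not overlap, against 66.3% of all tested miRNAs, a share that falls into 31.6% higher and 34.8% lower. Of the 7, miR-23a-3p and miR-23b-3p lay higher and the miR-24 and miR-27 arms lower. The median change over the 8 was -0.74, beside -0.064 over all tested. All members called lower belonged to miR-24 or miR-27, and both clusters supplied a miR-27 3p arm and a miR-24 5p arm. In whole heart tissue, fewer cells of a type and less RNA per cell cannot be told apart.

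**Figure D2:**
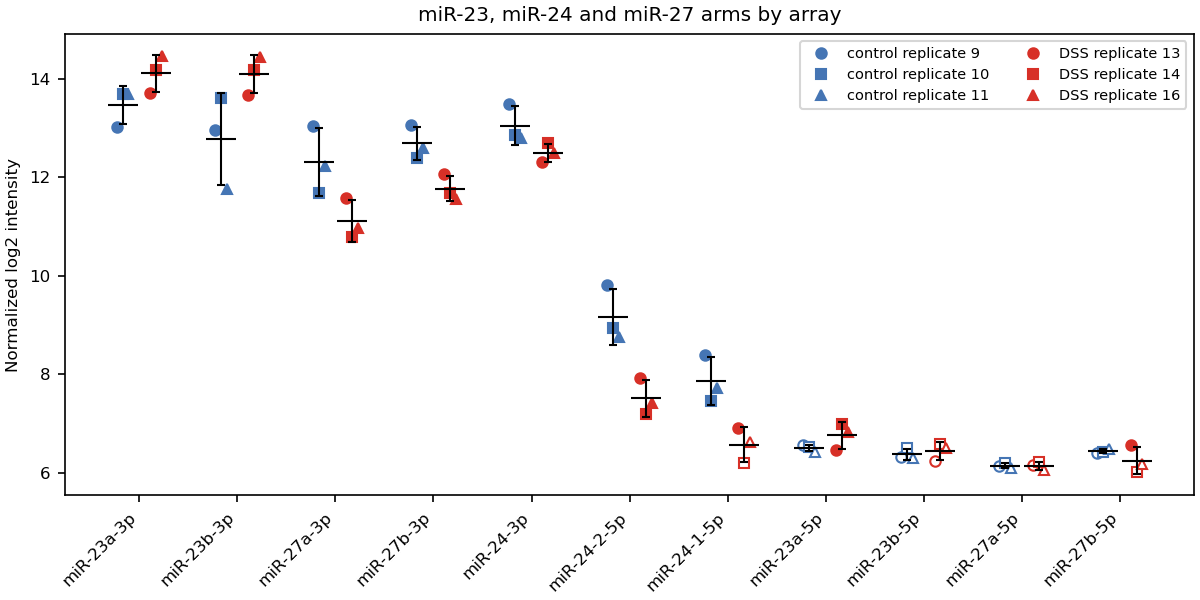
Normalized log2 intensity of the 11 arms on each array, with blue for control and red for DSS, a marker shape for each animal, filled markers where the arm was detected, and the group mean with its SD (n = 3). Both miR-27 3p arms and both miR-24 5p arms lay lower on all DSS arrays than on any control array. The control array of animal 11 lies far below the others for miR-23b-3p.

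The main arm rno-miR-27a-3p, a product of cluster a, read 13.05, 11.68 and 12.23 in control animals 9, 10 and 11 and 11.59, 10.79 and 10.98 in DSS animals 13, 14 and 16. Control animal 9 was the highest and DSS animal 14 the lowest, and the groups were separated by less than 0.1 between control animal 10 and DSS animal 13. The mean fell by 1.20 (SE 0.39, 95% CI -2.13 to -0.27, limma adjusted p = 0.0409), to 43.5% of the control level. Its cluster b counterpart rno-miR-27b-3p read 13.07, 12.40 and 12.61 in controls and 12.06, 11.69 and 11.57 in DSS hearts. The order of the control animals was the same as for miR-27a-3p, with a clearer gap between the groups. The mean fell by 0.92 (SE 0.24, 95% CI -1.50 to -0.34, limma adjusted p = 0.0224), to 52.9% of the control level. Both miR-27 calls rested on few arrays, since each was lost without control animal 11 (-1.34 and -1.05, adjusted p = 0.0766 and 0.0536 in limma), without DSS animal 14 (-0.74 and -0.57, adjusted p = 0.177 and 0.130 in limma) and without DSS animal 16 (-1.03 and -0.69, adjusted p = 0.140 and 0.106 in limma). With the normalization of all arrays kept, both were also lost without control animal 9 (-0.83 and -0.73).

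Among the passenger arms, rno-miR-24-2-5p from cluster a read 9.81, 8.95 and 8.75 in controls and 7.93, 7.20 and 7.42 in DSS hearts. It was detected on all arrays, and every DSS value lay under every control value. The mean fell by 1.65 (SE 0.34, 95% CI -2.46 to -0.85, limma adjusted p = 0.0153), a 3.14-fold lower level. The cluster b arm rno-miR-24-1-5p read 8.40, 7.46 and 7.73 in controls and 6.90, 6.19 and 6.62 in DSS hearts. Here the DSS values came near the background, and only the array of animal 13 passed detection in that group. The mean fell by 1.29 (SE 0.31, limma adjusted p = 0.0182), a size that rests on values below detection on the other DSS arrays. Without DSS animal 16 the values of miR-24-2-5p and miR-24-1-5p were -1.52 and -1.30, and neither was called (adjusted p = 0.0593 and 0.0625 in limma). The call of miR-24-1-5p was also lost without control animal 9 (-0.995, limma adjusted p = 0.0521) and, with the normalization kept, without DSS animal 14 (-1.10, limma adjusted p = 0.0565).

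The shared main arm rno-miR-24-3p read 13.50, 12.87 and 12.79 in controls and 12.32, 12.69 and 12.49 in DSS hearts. The groups did not overlap, but control animal 11 and DSS animal 14 differed by only 0.10. The difference was -0.55 (SE 0.24, 95% CI -1.14 to 0.029, limma adjusted p = 0.0960) and was not called. It was called lower in 6 of 32 alternatives, namely without normalization (-0.92, limma adjusted p = 0.0445), with quantile normalization (-0.92, limma adjusted p = 0.00958) and with 75th percentile scaling (-1.11, limma adjusted p = 0.0208), and under these 3 again without far spots. The difference was -0.88 without control animal 9, -0.28 without DSS animal 13 and -0.33 without DSS animal 14, each normalized anew, and 0.029 with spike-in scaling. Because hairpins on 2 chromosomes give this sequence, its value cannot be divided between the clusters.

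The main arm rno-miR-23a-3p read 13.02, 13.70 and 13.69 in controls and 13.71, 14.18 and 14.46 in DSS hearts. The lowest DSS value, of animal 13, was within 0.03 of control animals 10 and 11, so the separation rested on very little. The difference was 0.65 (SE 0.29, 95% CI -0.031 to 1.33, limma adjusted p = 0.0953) and was not called. It was -0.027 with 75th percentile scaling. It was -0.30 when control animal 9 was left out and the arrays were normalized anew, and 0.42 when that animal was left out with the normalization of all arrays kept. With the normalization kept it was called without DSS animal 13 (0.85, limma adjusted p = 0.0496).

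For rno-miR-23b-3p the values were 12.95, 13.61 and 11.78 in controls and 13.68, 14.18 and 14.45 in DSS hearts. The low value of control animal 11 came from 1 of its 4 spots, which read 69.9 on the linear scale of the scanner while the others read between 14745 and 22790 and the background of that array was 36.6. Spots more than 8-fold from the median of their probe numbered 8 among 18264 in all, and this was the only one in the family. With all spots the difference was 1.32 (SE 0.47, 95% CI 0.19 to 2.45, limma adjusted p = 0.0550). Without such spots, an alternative chosen after the values were seen, control animal 11 read 13.69, and the difference was 0.75 (SE 0.30, 95% CI 0.05 to 1.46, limma adjusted p = 0.0703), close to the 0.68 of miR-23a-3p on the same values. Neither version was called, but the value was called in 10 of 32 alternatives, all with the dim spot kept, among them without control animal 10 (1.63, limma adjusted p = 0.0309), without DSS animal 13 (1.70, limma adjusted p = 0.0450) and with spike-in scaling (1.82, limma adjusted p = 0.00242). The difference was 0.75 without control animal 9 and 0.77 without control animal 11, and 0.084 without far spots and with 75th percentile scaling.

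The passenger arm rno-miR-23a-5p was near the background, at 6.56, 6.53 and 6.43 in controls and 6.47, 6.99 and 6.82 in DSS hearts. It was detected on no control array and on all DSS arrays, although the value of DSS animal 13 lay among the controls. The difference was 0.25 (SE 0.19, limma adjusted p = 0.301) and was not called, and its size rests on control values below detection. This arm was tested only through its detection in DSS hearts. With control values raised to the detection floor of their arrays, its DSS mean was 1.07-fold higher, which is not a lower limit and does not show a rise. The untested passenger arms ranged from 6.01 to 6.58 over all arrays and overlapped between groups, with a single detection, of miR-27b-5p in DSS animal 13.

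Cluster a was set against cluster b through the log2 ratio of the paralogs within each array, which removes any factor common to the array. No difference was detected for either pair, where 37.5% of the 24 such pairs on the array differed. The members of each pair differ in 1 of 21 bases, and whether a probe also bound the paralog was not tested. A missing difference therefore cannot show that the paralogs changed alike. The ratio of miR-27a-3p to miR-27b-3p was -0.020, -0.72 and -0.38 in controls and -0.47, -0.91 and -0.59 in DSS hearts. The groups overlapped, and the change of the ratio was -0.28 (95% CI -0.87 to 0.30, limma adjusted p = 0.380), so a difference between the paralogs of up to 0.87 in that direction lay within the interval.

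The ratio of miR-23a-3p to miR-23b-3p was 0.061, 0.083 and 1.91 in controls and 0.033, -0.0038 and 0.010 in DSS hearts. On all arrays but that of control animal 11, with the dim spot, the ratio lay within 0.1 of 0. The change of the ratio was -0.67 (95% CI -1.94 to 0.59, limma adjusted p = 0.357), and -0.071 (95% CI -0.32 to 0.18, limma adjusted p = 0.635) without far spots. The ratio of miR-24-2-5p to miR-24-1-5p, a pair added after the values were seen, was 1.41, 1.49 and 1.02 in controls and 1.03, 1.01 and 0.80 in DSS hearts. The groups overlapped between control animal 11 and DSS animal 13, and the change was -0.36 (two-sided exact permutation p = 0.2, where the smallest possible p is 0.1). This ratio includes DSS values of miR-24-1-5p below detection.

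Main and passenger arms were compared in the same way, as the 3p minus 5p log2 ratio. Of the 3 pairs with both arms tested, 1 was called, where 33.3% of the 60 arm pairs on the array were. This was miR-24-3p against miR-24-2-5p, whose ratio was 3.68, 3.93 and 4.04 in controls and 4.38, 5.49 and 5.07 in DSS hearts. All DSS ratios exceeded all control ratios, that of animal 13 by the least. The ratio rose by 1.10 (SE 0.34, 95% CI 0.31 to 1.89, limma adjusted p = 0.0430), so the passenger arm fell further than the main arm. It was 0.31 (limma adjusted p = 0.410) without normalization and 0.49 (limma adjusted p = 0.497) without control animal 9. The call was lost in 20 of 31 alternatives, including each omission of 1 array other than DSS animal 13, with the direction kept in all.

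For miR-24-3p against miR-24-1-5p the ratio was 5.10, 5.41 and 5.06 in controls and 5.41, 6.50 and 5.87 in DSS hearts. Control animal 10 and DSS animal 13 were alike, and the difference of 0.74 (SE 0.33, limma adjusted p = 0.132) was not called, was -0.27 without normalization and was called without DSS animal 13 (1.16, limma adjusted p = 0.0231). For miR-23a-3p against miR-23a-5p the ratio was 6.46, 7.17 and 7.26 in controls and 7.24, 7.19 and 7.64 in DSS hearts. The groups overlapped, and the difference of 0.40 (SE 0.31, limma adjusted p = 0.361) was not called and was -0.41 without normalization. Both miR-24 arm ratios share the miR-24-3p probe, and their 5p arms lie at the dim end of the scale while their 3p arm lies at the bright end. The ratio to miR-24-1-5p includes DSS values of that arm below detection. In the ratio to miR-23a-5p, all control values of the 5p arm were below detection.

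Since the members of a cluster are cut from 1 transcript, arms of neighbouring hairpins were also set against each other, for all 172 pairs of tested miRNAs that RefSeq lists and whose hairpins lie within 10 kb on the same strand. As miR-23a-5p has no such entry here, it was in no pair. This comparison was added after the opposite signs of miR-23 and miR-27 had been seen, and 47.1% of the 172 pairs were called. Within the family 6 of 10 pairs were called, and these were the 6 that set a miR-23 3p arm against a miR-24 or miR-27 arm. The pairs share arms, so they are not 6 separate results.

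In cluster a, the log2 ratio of miR-23a-3p to miR-27a-3p was -0.033, 2.02 and 1.46 in controls and 2.12, 3.39 and 3.48 in DSS hearts. Control animal 9 was far below the others, and DSS animal 13 exceeded control animal 10 by only 0.11. The ratio rose by 1.85 (SE 0.60, 95% CI 0.44 to 3.26, limma adjusted p = 0.0411). Against miR-24-3p the ratio of miR-23a-3p was -0.48, 0.82 and 0.90 in controls and 1.40, 1.49 and 1.96 in DSS hearts. Control animal 9 was again the lowest, and the groups were separated by 0.50. The ratio rose by 1.20 (SE 0.42, limma adjusted p = 0.0490), and against miR-24-2-5p it rose by 2.30 (SE 0.55, limma adjusted p = 0.0161).

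In cluster b, the ratio of miR-23b-3p to miR-27b-3p was -0.11, 1.21 and -0.83 in controls and 1.62, 2.49 and 2.88 in DSS hearts. It rose by 2.24 (SE 0.57, limma adjusted p = 0.0180), and by 1.64 (SE 0.47, 95% CI 0.54 to 2.75, limma adjusted p = 0.0279) without far spots. The dim spot lowered a control value and so raised the first of these. Against miR-24-3p the ratio of miR-23b-3p rose by 1.88 (limma adjusted p = 0.0180) with all spots and by 1.28 (limma adjusted p = 0.0434) without far spots, and against miR-24-1-5p by 2.61 (limma adjusted p = 0.0134) and 2.04 (limma adjusted p = 0.0197), which include the DSS values of miR-24-1-5p below detection. Without far spots the values of cluster b thus came close to those of cluster a. As binding of a probe to the paralog was not tested, the clusters cannot be taken as separate readings.

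Within each cluster no difference between miR-27 and miR-24 was called. The change of miR-27a-3p against miR-24-3p was -0.65 (95% CI -1.53 to 0.24, limma adjusted p = 0.184) and that of miR-27b-3p against miR-24-3p was -0.36 (95% CI -1.04 to 0.31, limma adjusted p = 0.322). Against the 5p arms, miR-27a-3p changed by 0.45 relative to miR-24-2-5p (limma adjusted p = 0.196) and miR-27b-3p by 0.37 relative to miR-24-1-5p (limma adjusted p = 0.260), and these were -0.20 and -0.57 without normalization. The pair with miR-24-1-5p includes DSS values of that arm below detection. The intervals of all these pairs include both 0 and shifts of over 0.9.

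**Figure D3:**
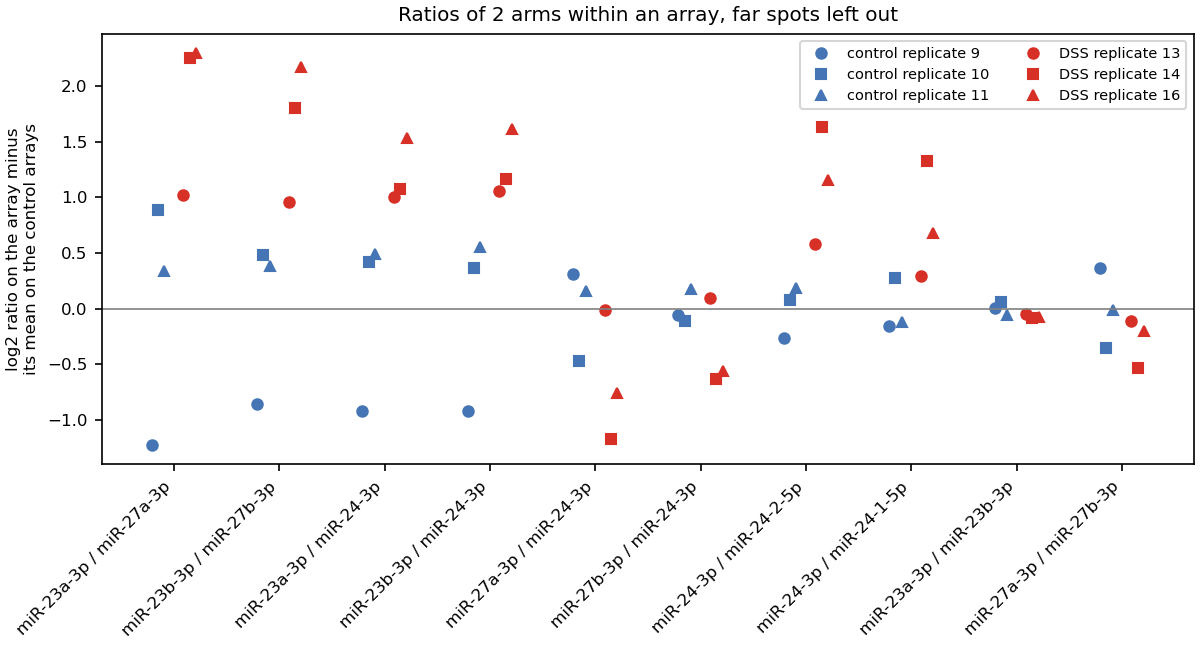
Log2 ratio of a pair of arms within each array, minus the mean of that ratio on the control arrays, with spots over 8-fold from their probe's median left out. Blue marks control and red DSS, with a marker shape for each animal. The ratios of miR-23 to miR-27 and to miR-24-3p were higher on all DSS arrays than on any control array, with control animal 9 lowest, while both paralog ratios (right) overlapped or lay close together.

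The ratios of miR-23 to its neighbours kept their direction in every alternative run, but not always their call. For miR-23a-3p against miR-27a-3p the difference ranged from 0.92 to 2.30 and was called in 14 of 31 alternatives, and for miR-23b-3p against miR-27b-3p it ranged from 1.45 to 2.80 and was called in 20 of 31. On values without normalization and without far spots, they were 1.59 (limma adjusted p = 0.0836) and 1.45 (limma adjusted p = 0.0534). Both lost their call without control animal 9 (0.92 and 1.94), control animal 11 (2.01 and 1.82), DSS animal 14 (1.72 and 2.18) and DSS animal 16 (1.67 and 1.97). The ratios to miR-24-3p and to the 5p arms also lost their call without control animal 9 (0.58 and 1.63 to miR-24-3p, 1.08 and 1.75 to miR-24-2-5p and miR-24-1-5p), DSS animal 14 (1.30, 1.94, 2.37 and 2.74 in the same order) and DSS animal 16 (1.06, 1.70, 2.16 and 2.58). That of miR-23a-3p to miR-24-3p lost it whichever array was left out. When arrays were scaled by 1 factor each, the change of miR-23a-3p relative to the median of all tested miRNAs was -0.20, in place of 0.71 with cyclic LOWESS, and those of miR-27a-3p, miR-27b-3p, miR-24-2-5p, miR-24-3p and miR-24-1-5p were -1.79, -1.57, -1.59, -1.28 and -1.01. Thus under those scalings miR-27 and miR-24 were low relative to other miRNAs, and miR-23a-3p was near the median, whereas miR-23b-3p was 0.52 with all spots and -0.099 without far spots.

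**Figure D4:**
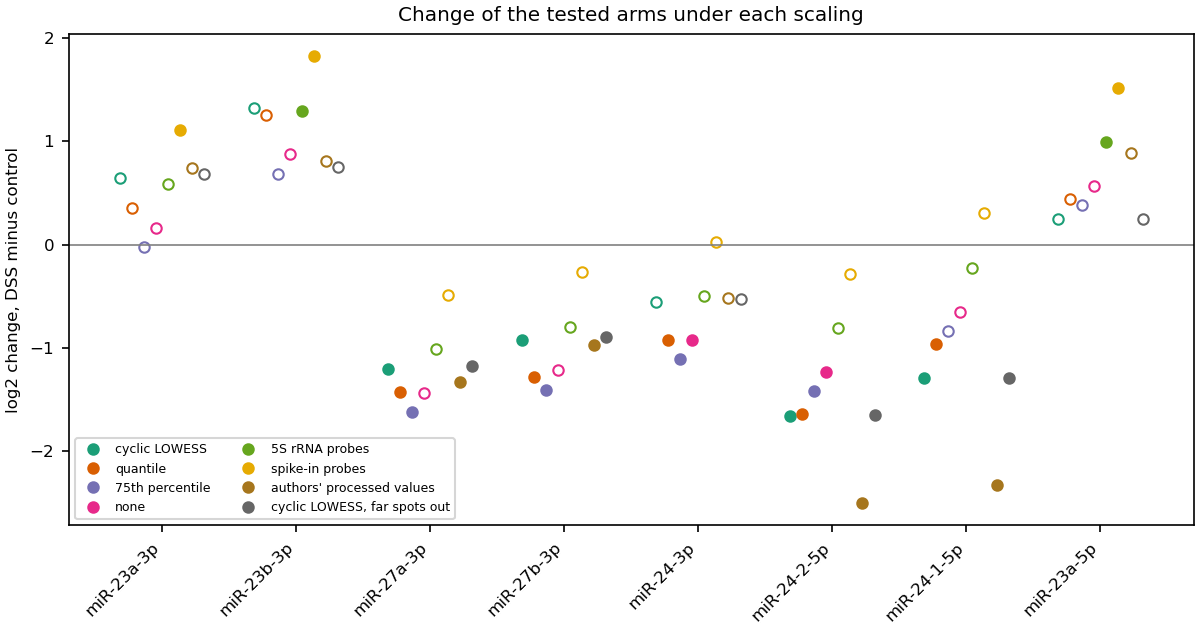
Log2 change in DSS against control hearts of the 8 tested arms under each scaling of the arrays. Filled markers have a limma adjusted p below 0.05 and open markers do not. Scaling to spike-in probes, which were 0.95 lower in DSS hearts, moved all arms up, so that miR-24-3p (0.029) and miR-24-1-5p (0.30) changed sign while both miR-27 arms and miR-24-2-5p remained below 0.

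Other miRNAs known in the same processes were counted from lists, with the normalization used here only. Among 20 miRNAs linked to cardiac hypertrophy, the process with which miR-23a is associated, 15 were tested, 3 were called higher, 7 were called lower and the median change was -0.67. Among all tested miRNAs 20.9% were called higher and 28.4% lower, with a median of -0.064. The largest called were miR-1-3p (3.11), an abundant muscle miRNA, and miR-98-5p (2.46), of the let-7 family, on the higher side, and miR-499-5p (-2.09), which lies in a myosin gene, and miR-29b-3p (-2.04), a repressor of collagen genes, on the lower side. For miR-29b-3p the groups overlapped, and it was detected on 3 control and 2 DSS arrays. Detection of miR-98-5p was on 2 control and 3 DSS arrays. Among 15 angiogenesis miRNAs, the process linked to miR-27 and miR-24, 11 were tested, 0 were called higher, 5 were called lower and the median was -0.65, against the same shares and median of all tested. The largest called were miR-19b-3p (-1.55) and miR-20a-5p (-1.19) of the miR-17-92 family, the endothelial miR-126a-3p (-1.28) and miR-130a-3p (-0.67). The value of miR-19b-3p includes readings below detection, as it was detected on 3 control arrays and 1 DSS array. Another member of the miR-17-92 family, miR-92a-3p, was 1.11 (limma adjusted p = 0.0501), with the groups not overlapping, and just missed the threshold.

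Markers of heart cell types were read on the same arrays, and some of them also belong to the lists above. Both endothelial arms, of miR-126a, were tested and miR-126a-3p fell, and their summed level was 12259 to 20280 in controls and 4694 to 10308 in DSS hearts, on the linear scale. Of 5 fibroblast and smooth muscle miRNAs, 3 fell (miR-199a-5p by 1.58, miR-145-5p by 0.98 and miR-199a-3p by 0.75) and miR-214-3p rose by 1.12, with sums of 16645 to 23143 and 11898 to 12762. Neither sum overlapped between the groups, and both were lower in DSS hearts, with the normalization used here. The sums were not computed under other scalings, and spike-in scaling moved the median change of all tested miRNAs from -0.064 to 1.31. The endothelial sum was nearly all miR-126a-3p, at 95.1% to 99.3%, while miR-126a-5p overlapped between the groups (limma adjusted p = 0.237). In the fibroblast and smooth muscle sum miR-145-5p made up 34.1% to 50.1%. Neither sum is a measure of its cell type as a whole. Of 6 cardiomyocyte miRNAs, 4 were tested, 1 rose and 1 fell, with sums of 41556 to 64817 and 38959 to 94832.

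Blood cell markers, also read with this normalization only, were mixed. Of 4 erythroid miRNAs 3 were tested, and miR-451-5p fell by 2.53, miR-144-5p fell by 0.94 and miR-486 rose by 2.36. The value of miR-144-5p includes readings below detection, as it was detected on 2 control arrays and 1 DSS array. The erythroid sums were 3078 to 6392 in controls and 4033 to 5841 in DSS hearts. The share of miR-486 in them ranged from 8.27% to 90.7%, so they are no measure of erythroid cells. Of 5 leukocyte miRNAs 3 were tested, and miR-150-5p, a lymphocyte miRNA, rose by 1.59 and miR-223-3p, a myeloid miRNA, fell by 1.35. For miR-155-5p, detected on no control array and on all DSS arrays, the mean rose by 0.65 (limma adjusted p = 0.0476), a size that rests on control values below detection. It was tested only through its detection in DSS hearts. With control values raised to the detection floor of their arrays, its DSS mean was 1.17-fold higher, which is not a lower limit. The leukocyte sums were 2321 to 4950 in controls and 8610 to 10068 in DSS hearts. They follow miR-150-5p, which made up 69.0% to 96.4% of them, and are no measure of leukocytes as a whole, while both arms of miR-142, found in all leukocytes, were detected on 1 control array and on no DSS array. The part of these cell types in the changes of miR-23, miR-24 and miR-27 was not tested.

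Over the 6 arrays, the miRNAs outside the clusters with the profile most like that of miR-24-2-5p were miR-199a-5p, miR-22-3p and miR-125b-2-3p, and those most like miR-24-1-5p were miR-29a-3p, miR-1839-3p and miR-125b-2-3p. The 5p arm of miR-23a was most like miR-3557-3p, miR-3593-3p and miR-182. The mean standardized profile of the 5 main arms, which was most like miR-17-5p, miR-339-3p and miR-143-3p, mixes opposite profiles, as miR-23a-3p had an r of -0.94 with miR-27a-3p and -0.95 with miR-27b-3p over the 6 arrays. Likeness was ranked by the Pearson correlation over the arrays among 274 miRNAs, and all of these profiles share the difference between the groups and the same 6 arrays.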

How the data were processed

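Heart miRNA was measured on 1 single-colour array per rat, with 3 control and 3 DSS animals grouped by the labels. The authors deposited scanner intensities, the median brightness of each spot with background included and no normalization, and a table of processed intensities, which they had background-subtracted and passed through a LOWESS filter. Here the scanner intensities were corrected with normexp (offset 50), each probe's 4 spots were averaged on the log2 scale, and the arrays were normalized by cyclic LOWESS (span 0.7, 3 iterations) over 761 miRNA probes. This normalization acts on each range of brightness separately, and centres the changes in each range near 0. The median change of the tested miRNAs was -0.064, while 49.3% of them were called.

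A spot passed when it was over the background (the median brightness among the dimmest 25% of miRNA spots) by more than 3 SD, taken from 632 empty spots, and had a pixel CV below 0.5, and a miRNA was detected when at least 2 of its 4 spots passed. The spot CV of tested members was 12.9% at the median.

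Groups were compared with limma 3.58.1 in R 4.3.3, with Benjamini-Hochberg adjustment over the 282 miRNAs detected on at least 3 arrays. Paralog pairs, arm pairs and neighbouring pairs were fitted as differences within arrays, each adjusted over all pairs of its kind. Exact tests used the 20 arrangements of the arrays. Figures were drawn with matplotlib 3.10.9. The scripts were tested on simulated data.

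The members and lists were chosen with earlier results of these data known. Named were all members, up to 4 called miRNAs of each list with the largest change, and the 3 most like the mean main-arm profile and each tested passenger arm. The neighbouring pairs, the fits without far spots, and those leaving out an array with the normalization kept were added after the values were seen. The files name no slide or scan, so no such block could be fitted.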

Additional observations from a re-analysis of the deposited data

How the results depend on the processing

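The comparisons were recomputed under 22 alternatives fixed beforehand and 10 added after the values were seen. No paired analysis was possible because no control animal shares its number with a DSS animal. The cause of the shifts below was not tested. Both paralog comparisons kept their direction and missed the threshold throughout, and miR-24-2-5p, miR-27a-3p and miR-27b-3p stayed below 0 and miR-23b-3p above 0 in all. Members called lower numbered 2 without normalization (also without far spots), 0 with spike-in or 5S rRNA scaling, 1 with no filter on dim probes and 0 with the methods' t-test, under which 0 of 282 miRNAs passed after adjustment and 3 members did unadjusted. Leaving out an array gave 0 to 4, renormalized or not, with 0 of all miRNAs called without DSS animal 16, where the smallest adjusted p was 0.0593, and 3 members unadjusted. Members called higher, all of them miR-23 arms, numbered 3 with spike-in scaling, where 168 of all 282 tested miRNAs were called higher. They numbered 2 with 5S rRNA scaling (129 of 282) or array weights (79 of 282). They numbered 1 with offset 16, detection on all 6 arrays, a limit of 5 SD or a limit from the median empty spot, and 0 to 1 leaving out an array. The change of miR-23a-3p was -0.027 with 75th percentile scaling and -0.30 to 1.03 leaving out an array, lowest without control animal 9, and with spike-in scaling miR-24-3p was 0.029 and miR-24-1-5p 0.30. The miR-24-3p to miR-24-2-5p difference was 0.31 with no normalization, 75th percentile, spike-in or 5S rRNA scaling, 0.72 with quantile normalization (0.68 without far spots), 1.40 with plain background subtraction, 1.10 with no filter on dim probes, and 0.49 to 1.55 leaving out an array, called only without DSS animal 13. The miR-24-3p to miR-24-1-5p difference was -0.27 under no normalization and the 3 scalings, 1.81 (called) on the authors' processed values, and 0.12 to 1.16 leaving out an array. The miR-23a-3p to miR-23a-5p difference was -0.41 under the same 4 settings, -0.082 with quantile normalization (-0.088 without far spots), -0.59 with plain subtraction, -0.14 on the authors' values, and -0.56 to 0.55 leaving out an array. The miR-27a-3p to miR-24-2-5p difference was -0.20 and the miR-27b-3p to miR-24-1-5p difference -0.57 under those 4 settings, and the latter was -0.32 with quantile normalization (-0.31 without far spots) and -0.20 to 0.61 leaving out an array, lowest without control animal 9. Dim arms such as miR-24-1-5p and miR-23a-5p lie near the background. With offset 16 they were -1.64 and 0.40, beside -1.29 and 0.25 in the main values. They were -0.65 and 0.57 without normalization, and 0.30 and 1.52 with spike-in scaling. Whether the offset understates the changes of these arms was not tested.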
